A study of Homo sapiens with 6 samples.

Results

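The genes described here encode proteins that hold actin filaments together: the filamins FLNA and FLNC, the alpha-actinins ACTN1 and ACTN4, the plastins LCP1, PLS1 and PLS3, and the fascin FSCN1, with the actin-like gene ACTL8. They are 9 of the 58735 genes in the deposited table, taken by symbol, and all 9 passed the filter for testing (a mean of at least 1 FPKM, reads scaled by gene length and library size, over the libraries). They were chosen with their values in these libraries already known. The differences between genotypes of these 9 genes are therefore given as a description, with no p-value. How many of them the fit over all genes called is counted, also under other settings, with nothing read from the counts. ACTL8 encodes a protein of the actin fold and is not an established crosslinker, so the set is the 8 crosslinkers and bundlers plus this gene.

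The 6 libraries come from HT1080, an established human fibrosarcoma line: 3 from wild-type cells (WT) and 3 from cells with a CRISPR-Cas9 knockout of GPR56 (KO). GPR56 is an adhesion G protein-coupled receptor encoded by ADGRG1. The sample descriptions of both genotypes carry the word DMSO, with no dose or time. Neither separate cultures nor a number of KO clones is stated in the labels, so the spread between libraries may be technical, and an effect of the knockout cannot be told apart from a difference between clones. Read numbers recovered from the FPKM, summed over genes, were 16410352 to 17276269 per library. The library sizes that the FPKM imply differ from these sums. They were 16919552 against 16434344 in WT 1 and 16603136 against 16955111 in KO 3. The WT libraries held ADGRG1 at 6.61, 6.07 and 6.87 FPKM, the KO libraries at 2.68, 2.54 and 2.58 FPKM, lower but still detected.

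Filamins are long dimers that crosslink filaments into loose orthogonal networks and tie them to membrane receptors. Alpha-actinins are antiparallel dimers that space filaments into contractile bundles and link them to adhesions. Plastins, also called fimbrins, hold filaments close through a pair of actin-binding domains within 1 chain, and fascin packs parallel filaments into the stiff bundles of filopodia. Which of these proteins a cell makes shapes its cortex, stress fibres and protrusions.

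The promoters of the 3 genes with the lowest KO to WT ratios, FLNC, ACTL8 and LCP1, are printed beside that of FLNA, a widely expressed filamin, because the 3 differ in composition although their levels all stood lower in KO. Each line gives the 250 bases before the RefSeq start (GRCh38.p14), 5′ to 3′ on the gene's strand. Capitals mark matches, on either strand, to any of 6 motifs: the CArG box bound by SRF, the TEAD motif GGAATG, the AP-1 motif TGANTCA, the SP1 motif GGGCGG, the TATA box motif TATAAA and the interferon response motif GAAANNGAAA.
FLNC (chr7:128830156-128830405, plus strand): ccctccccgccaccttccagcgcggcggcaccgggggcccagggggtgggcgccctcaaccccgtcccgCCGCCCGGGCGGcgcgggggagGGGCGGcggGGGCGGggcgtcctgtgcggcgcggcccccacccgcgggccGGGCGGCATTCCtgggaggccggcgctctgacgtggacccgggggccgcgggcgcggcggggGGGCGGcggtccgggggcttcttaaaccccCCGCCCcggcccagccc
ACTL8 (chr1:17755083-17755332, plus strand): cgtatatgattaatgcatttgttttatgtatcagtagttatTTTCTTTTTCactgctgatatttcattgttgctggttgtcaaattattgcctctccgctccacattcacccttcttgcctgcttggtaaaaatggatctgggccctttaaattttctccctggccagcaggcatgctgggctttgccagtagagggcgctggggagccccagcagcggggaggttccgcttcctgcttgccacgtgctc
LCP1 (chr13:46182178-46182427, minus strand): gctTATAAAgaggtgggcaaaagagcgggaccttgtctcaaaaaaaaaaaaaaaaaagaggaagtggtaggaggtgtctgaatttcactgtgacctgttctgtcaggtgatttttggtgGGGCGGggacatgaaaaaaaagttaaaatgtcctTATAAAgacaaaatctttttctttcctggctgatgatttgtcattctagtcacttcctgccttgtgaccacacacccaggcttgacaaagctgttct
FLNA (chrX:154374635-154374884, minus strand): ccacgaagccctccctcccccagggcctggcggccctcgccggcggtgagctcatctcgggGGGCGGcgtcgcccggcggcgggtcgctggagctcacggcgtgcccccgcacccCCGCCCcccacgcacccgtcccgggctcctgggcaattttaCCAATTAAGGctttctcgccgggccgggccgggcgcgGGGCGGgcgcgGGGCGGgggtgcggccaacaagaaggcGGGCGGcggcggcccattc
The FLNC window held 7 copies of GGGCGG and 1 of GGAATG directly next to one of them, with 38 CpG dinucleotides and 85.6% G+C. The ACTL8 window held 6 CpG and 48.4% G+C, and its single match was to GAAANNGAAA on the minus strand, 209 to 200 bases before the start. The LCP1 window held 2 CpG, 41.2% G+C, 2 copies of TATAAA and 1 of GGGCGG. The TATAAA copies lay 247 to 242 and 97 to 92 bases before the start. So of the 3 genes with the lowest ratios 1 had a very CpG-rich promoter and 2 had fewer CpG than the median. That median over 27305 RefSeq promoters was 11 CpG, and 58.0% for G+C. The share of all promoters with no more CpG was 97.5% for FLNC, 41.6% for ACTL8 and 23.6% for LCP1. FLNA was the one of the 8 genes with a window, all but FSCN1, to hold a CArG box, 94 to 85 bases before the start, a match that 1.14% of all promoters hold. The shares of all promoters with a match were 11.9% for GGAATG, 6.6% for TGANTCA, 42.3% for GGGCGG, 11.1% for TATAAA and 3.07% for GAAANNGAAA. A match is a string of letters and not a shown binding site. RefSeq places the LCP1 start 29694 bases inside the outer bound of the gene in the deposited table, and gene-level values do not show which start was used.

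In WT libraries the 9 genes spanned from 4.19 to 302.8 FPKM. FLNA was highest (302.8 ± 38.8 FPKM, SD, n = 3), then ACTN4 (215.7 ± 28.2) and FSCN1 (209.5 ± 2.9), whose ranges overlapped. LCP1 (108.6 ± 7.9) and ACTL8 (97.7 ± 7.0) also overlapped, as did PLS3 (68.4 ± 6.2) and ACTN1 (67.6 ± 4.9), with FLNC (17.9 ± 1.8) and PLS1 (4.19 ± 0.54) below. In KO libraries the order was FSCN1, FLNA, ACTN4, ACTN1, PLS3, LCP1, PLS1, ACTL8 and FLNC, and of these neighbours only PLS1 and ACTL8 overlapped. FSCN1 thus moved from the third place to the first, and ACTL8 from the fifth to the eighth.

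**Figure D1:**
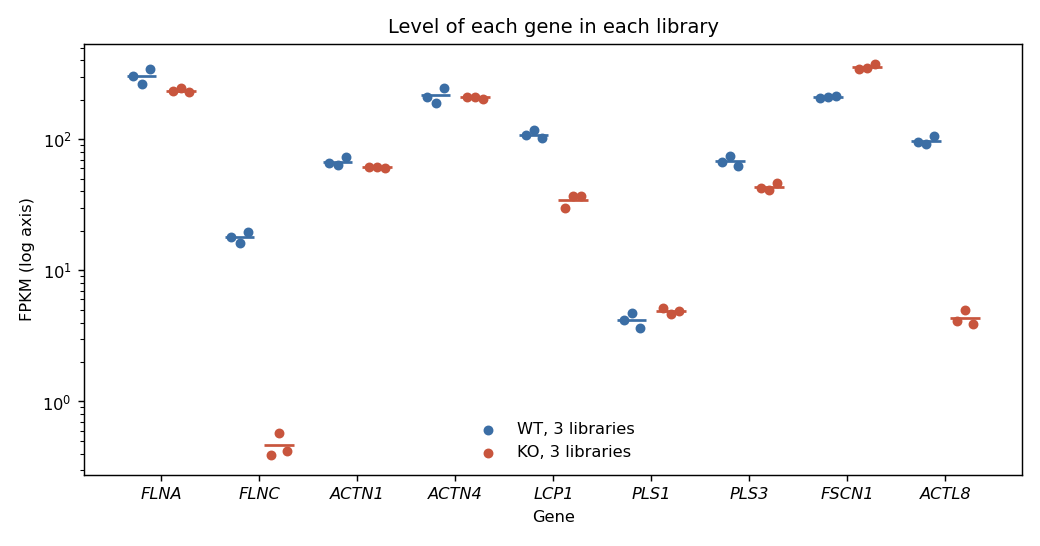
FPKM (log axis) of the 9 genes in each of the 3 WT and 3 KO libraries; points are libraries and bars are means. FLNC and ACTL8 lie far lower in KO, LCP1 and PLS3 lie lower, FSCN1 lies higher, and the points of ACTN4 and PLS1 overlap.

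Of the 9 genes, 5 were lower in KO and 1 higher by the fit over all genes (limma on log2(FPKM + 1), adjusted p under 0.05), and 3 did not pass. Over all 12000 tested genes 43.4% were called, 21.0% higher and 22.4% lower. The FPKM of the 2 genotypes did not overlap for 7 of the 9, against 54.7% of all tested genes. FLNA was not called with no filter, with a replicate block or when WT 1, KO 1, KO 2 or KO 3 was left out (1 higher and 4 lower). PLS1 was called higher when WT 2 was left out (2 higher and 5 lower). ACTN1 was called lower under quantile normalization (1 higher and 6 lower). After a correction for GC content and gene length 2 were called higher and 7 lower. Since the choice of the genes used this contrast, nothing is read from any of these counts.

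FLNC (ENSG00000128591, chromosome 7, 128830377 to 128859274 on GRCh38, plus strand) encodes filamin C, best known from the Z-discs of striated muscle. Its level was 18.0, 16.1 and 19.6 FPKM in WT and 0.39, 0.58 and 0.42 FPKM in KO. The KO libraries were all far below the WT libraries, with 62 to 92 reads each against 2480 to 3024, so the KO level is low but measured. The ratio of the means was 38.7-fold in favour of WT, with a log2 difference of −3.69 (SE 0.09) on the log2(FPKM + 1) scale and of −5.01 with a pseudocount of 0.1. FLNA (ENSG00000196924, chromosome X, 154348524 to 154374638, minus strand), a widely expressed filamin, stood at 301.2, 264.8 and 342.4 FPKM in WT and 232.5, 244.1 and 227.9 FPKM in KO. The groups did not overlap, but WT 2 came close to KO 2, and the WT libraries spread more widely than the KO libraries. Its log2 difference was −0.36 (SE 0.10), a KO to WT ratio of 0.776.

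Of the alpha-actinin, plastin and fascin families, the plastins had the lowest summed level in KO relative to WT. LCP1 (ENSG00000136167, chromosome 13, 46125920 to 46211871, minus strand), the plastin of leukocytes that many tumour lines also express, stood at 106.8, 117.2 and 101.7 FPKM in WT and 30.0, 37.2 and 36.8 FPKM in KO. All KO libraries were below all WT libraries, with a WT to KO ratio of 3.13 and a log2 difference of −1.62 (SE 0.10). PLS3 (ENSG00000102024, chromosome X, 115561174 to 115650861, plus strand), the plastin of most solid tissues, stood at 67.5, 75.0 and 62.6 FPKM in WT and 42.5, 40.8 and 46.2 FPKM in KO. It too was lower in each KO library, with a log2 difference of −0.65 (SE 0.08). After correction for GC content and gene length the PLS3 difference was −0.39.

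PLS1 (ENSG00000120756, chromosome 3, 142596387 to 142713664, plus strand), the plastin of intestinal and inner ear microvilli, was the least abundant of the 3. Its values of 4.18, 4.73 and 3.66 FPKM in WT and 5.19, 4.66 and 4.90 FPKM in KO overlapped, KO 2 lying below WT 2. Its log2 difference was 0.19 (SE 0.09), and 0.57 after the correction for GC content and length. The summed plastin level was 181.1 ± 14.7 FPKM in WT and 82.8 ± 5.1 FPKM in KO. LCP1 made up 60.0 ± 0.5% of it in WT and 41.8 ± 3.2% in KO, and PLS3 37.7 ± 0.4% and 52.2 ± 2.7%. The leading plastin by FPKM was therefore LCP1 in each WT library and PLS3 in each KO library.

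**Figure D2:**
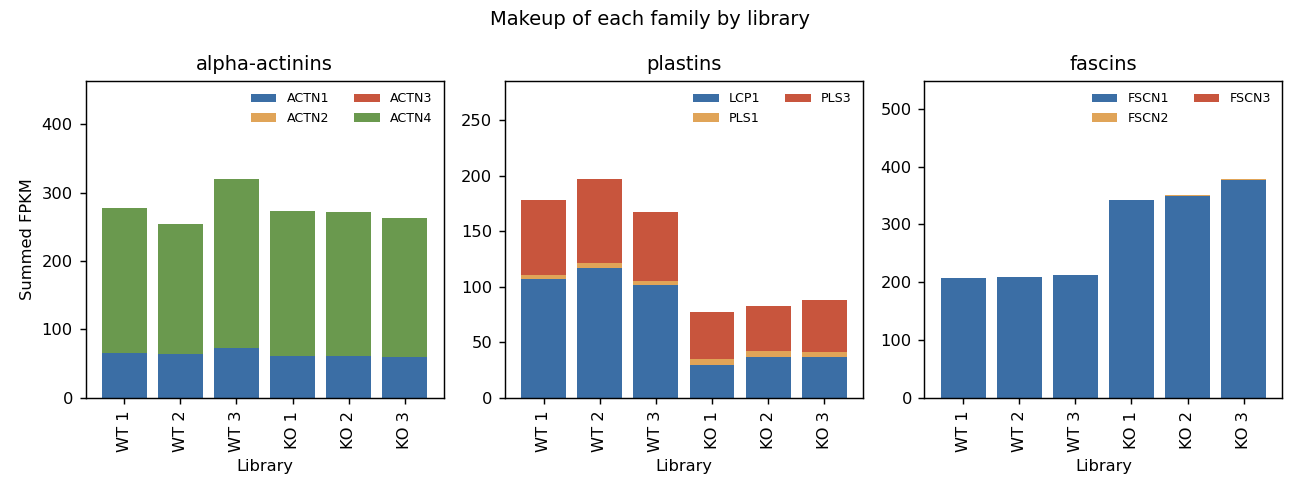
Summed FPKM of the alpha-actinin, plastin and fascin genes in each library, stacked by gene; the vertical scale of each panel starts at 0 and differs between panels. The plastin sum is lower in each KO library and its largest part changes from LCP1 to PLS3, the fascin sum is higher, and the alpha-actinin sum overlaps between genotypes.

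FSCN1 (ENSG00000075618, chromosome 7, 5592823 to 5606655, plus strand), which encodes fascin, was the one of the 9 whose KO libraries all lay above its WT libraries. It stood at 206.7, 209.2 and 212.5 FPKM in WT and 342.5, 349.1 and 377.4 FPKM in KO. The WT libraries were nearly equal, and each KO library lay well above them, with a KO to WT ratio of 1.70 and a log2 difference of 0.76 (SE 0.06). After the correction for GC content and length the difference was 0.54. The photoreceptor fascin FSCN2 had 45 reads in WT and 51 in KO, summed over libraries, and the testis fascin FSCN3 had none, so fascin mRNA here was FSCN1.

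The non-muscle alpha-actinins differed least. ACTN4 (ENSG00000130402, chromosome 19, 38647649 to 38731583, plus strand) stood at 211.6, 189.9 and 245.8 FPKM in WT and 211.1, 210.7 and 203.3 FPKM in KO, with a log2 difference of −0.04 (SE 0.10). The KO libraries lay inside the WT range, and the sign of the difference turned when WT 3 was left out (0.06). ACTN1 (ENSG00000072110, chromosome 14, 68874143 to 68979440, minus strand) stood at 65.9, 63.7 and 73.1 FPKM in WT and 61.8, 60.9 and 60.0 FPKM in KO, with a log2 difference of −0.15 (SE 0.07). The highest KO library was just under the lowest WT library. ACTN4 made up 75.9 ± 1.1% of alpha-actinin FPKM in WT and 77.3 ± 0.2% in KO, while the muscle forms ACTN2 (126 and 41 reads) and ACTN3 (0 and 1 reads) contributed almost nothing. Of the ACTN4 exonic bases 14.2% overlap CAPN12, an antisense gene with a mean of only 0.106 FPKM. Overlaps with other genes covered at most 2.82% of the exonic bases of the other 8.

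ACTL8 (ENSG00000117148, chromosome 1, 17755313 to 17827063, plus strand) is normally expressed mainly in testis and is counted among the cancer-testis genes, which tumours can switch on. It stood at 95.8, 91.9 and 105.4 FPKM in WT and 4.10, 4.99 and 3.88 FPKM in KO. All KO libraries lay far below, with 120 to 160 reads against 2851 to 3268, a WT to KO ratio of 22.6 and a log2 difference of −4.22 (SE 0.09). Of 29 other cancer-testis genes 13 reached the filter: 4 were lower, 1 higher and 8 did not pass, a called share of 38.5% beside 43.4% of all tested genes (median log2 fold change −0.07). MAGEC2 fell from 7.45 ± 0.59 to 2.54 ± 0.21 FPKM (limma adjusted p = 6.41e-05), and PRAME was at 35.2 ± 1.2 and 36.9 ± 0.7 FPKM (adjusted p = 0.37). GAGE1, the higher one and a gene with near-identical copies, was not called with no filter or when WT 1, WT 2, KO 1 or KO 3 was left out.

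The 9 genes were set against actin itself, whose cytoplasmic forms share sequence with many pseudogenes, so that single values are uncertain. ACTB had a mean of 2088.6 ± 50.2 FPKM in WT, against 2327.4 ± 182.9 FPKM in KO (limma adjusted p = 0.189). ACTG1 stood at 1917.3 ± 84.1 and 1607.2 ± 122.7 FPKM (limma adjusted p = 0.0483). The limma adjusted p was 0.527 with no filter, and 0.079 to 0.134 when WT 1, WT 2, WT 3, KO 1 or KO 2 was left out. It was 0.00502 under quantile normalization and 0.0114 after the correction for GC content and length. Per 1000 FPKM of these cytoplasmic actins together, FSCN1 was at 52.3 ± 1.4 in WT and 90.7 ± 2.7 in KO, and ACTN4 at 53.9 ± 7.2 and 53.2 ± 5.1. LCP1 was at 27.1 ± 1.8 and 8.81 ± 0.69, PLS3 at 17.1 ± 1.5 and 11.0 ± 0.6, and FLNC at 4.47 ± 0.49 and 0.118 ± 0.026. FLNA was at 75.7 ± 10.2 and 60.0 ± 5.6, its lowest WT value (64.5) just above its highest KO value (63.6). On the actin scale, then, the values of FSCN1 overlapped those of ACTN4 in WT, and in KO its mean was above that of each of the other 8.

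The position of a gene could be compared with its neighbours, since several chromosome regions differ between the genotypes. The counts below stand beside the 43.4% of all tested genes that were called, 21.0% higher and 22.4% lower. LCP1 lay within 1 Mb of 7 tested protein-coding genes, of which 6 were called higher in KO (median log2 fold change 0.53), and chromosome 13 had a median of 0.22 over 239 genes. LCP1 was thus lower among neighbours that were higher. FSCN1 lay among 21 such genes, 16 of them higher, with a median of 0.41. The first 50 Mb of chromosome 7 had a median of 0.30 over 190 genes. The difference of FSCN1, 0.76, had the same sign, and most of its neighbours within 1 Mb had smaller ones. These medians are not corrected for GC content, and whether a gene's level follows its region was not tested. ACTB lies 29039 bases away from FSCN1. FLNC had 16 such neighbours, 5 higher and 2 lower (median 0.07), and CCDC136 at 8245 bases and ATP6V1F at 3552 bases were at log2 fold changes of 0.34 (limma adjusted p = 0.015) and 0.13 (adjusted p = 0.493). ACTL8 had 5, 2 of them higher (median 0.24). No tested neighbour of FLNC, ACTL8 or LCP1 within that distance had a difference as low as theirs. These 3 genes ranked 4, 2 and 53 from the lowest of all 12000 tested genes and were chosen with that known, so nothing is read from this.

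**Figure D3:**
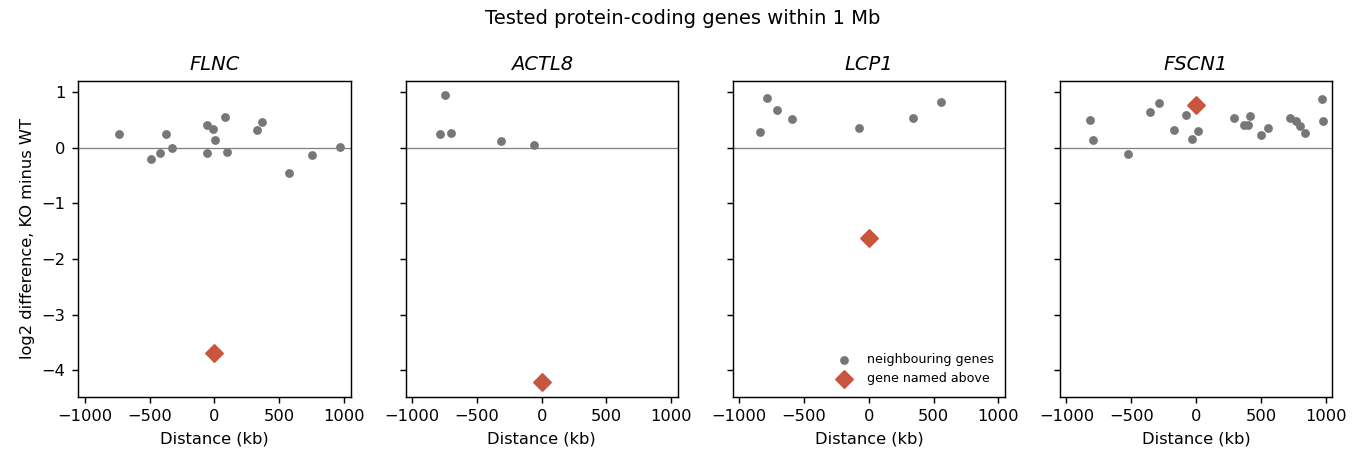
Log2 difference, KO minus WT on the log2(FPKM + 1) scale, of FLNC, ACTL8, LCP1 and FSCN1 (diamonds, at 0) and of the tested protein-coding genes within 1 Mb (dots) by distance in kb from the gene's nearer end, or 0 where the genes overlap. The diamonds of FLNC, ACTL8 and LCP1 lie below all of their neighbours, and that of FSCN1 lies among neighbours that are mostly above 0.

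The spread inside WT was not the same for all of the 9 genes, and it ran with GC content, a property that their choice did not use. WT 2 was the lowest WT library for FLNA, FLNC, ACTN1, ACTN4 and ACTL8, whose longest transcripts hold 49.9% to 62.3% G+C, and the highest for LCP1, PLS1 and PLS3, which hold 36.1% to 45.4%. WT 3 showed the reverse. FSCN1, at 65.0%, deviated by no more than 0.02 on the log2 scale in any WT library. Over all 11992 tested genes with a GC value, deviations from the genotype mean correlated with GC content at a Spearman rho of −0.06 in WT 1, −0.59 in WT 2 and 0.64 in WT 3, and 0.17, 0.21 and −0.34 in KO 1, KO 2 and KO 3, a description across genes that share a library. Apart from FSCN1, the WT spread of these genes thus followed a trend seen in the whole library. GC content also ran with genotype: for deviations from the mean of all 6 libraries rho was −0.40, −0.62 and −0.01 in WT 1, WT 2 and WT 3, and 0.46, 0.44 and 0.23 in KO 1, KO 2 and KO 3. After the correction for GC content and length the log2 differences were −0.51 for FLNA, −3.85 for FLNC, −0.17 for ACTN1, −0.20 for ACTN4, −1.60 for LCP1 and −4.39 for ACTL8.

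**Figure D4:**
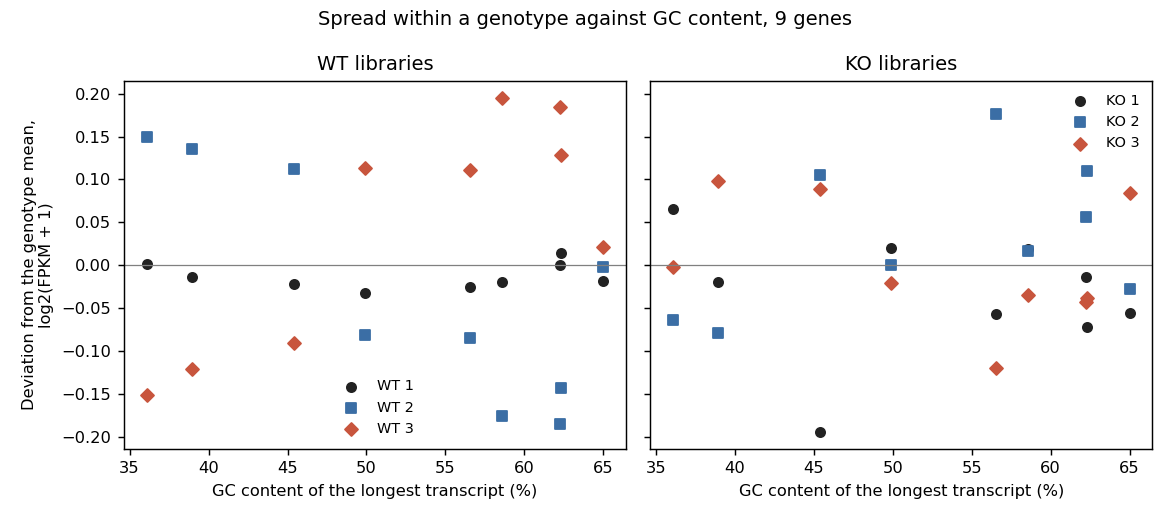
Deviation of each library from its genotype mean, on the log2(FPKM + 1) scale, against the GC content in percent of the gene's longest transcript, for the 9 genes; each marker shape is a library. WT 2 runs from above 0 at low GC to below 0 at high GC and WT 3 the other way, except at the highest GC value (FSCN1), and KO 3 lies on the same side of 0 as WT 2 for each gene but PLS1 and FSCN1.

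Genes most alike in pattern were taken as the 3 tested protein-coding genes with the smallest root mean square difference in log2(FPKM + 1), centred per gene, over the 6 libraries. For FLNC these were CCL5, CDCP1 and ACTL8 (0.14, 0.18 and 0.27), and for ACTL8 they were IFI44, CCL5 and FLNC (0.19, 0.25 and 0.27). For LCP1 they were SLC38A1, SH2D4A and HAS2 (0.08, 0.09 and 0.12), and for FSCN1 they were RHBDF2, TP53INP2 and S100A10 (0.01, 0.03 and 0.03). For genes with differences this large the measure is set mostly by the KO to WT difference that the choice of the 9 used, and CCL5, CDCP1 and IFI44 had log2 fold changes of −3.79, −3.40 and −4.43. ACTN4 was most like MYH9, the heavy chain of non-muscle myosin IIA (0.01; 192.9 ± 26.5 FPKM in WT and 185.4 ± 3.4 FPKM in KO), and FLNA was most like CAPN15 (0.02).

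Other genes that crosslink, bundle or line actin filaments moved in both directions. Of 72 in a list chosen by function, which includes none of the 9, 39 were tested: 11 were higher in KO, 14 lower and 14 did not pass, a called share of 64.1% beside 43.4% of all tested genes. The median log2 fold change was 0.06, and −0.01 over all tested genes. CALD1, the gene of caldesmon, which binds actin and tropomyosin, fell from 14.6 ± 1.1 to 6.18 ± 0.97 FPKM (limma adjusted p = 0.000317). ANLN, a scaffold of the cytokinetic ring, fell from 43.1 ± 5.3 to 28.8 ± 2.6 FPKM (log2 fold change −0.56, and −0.34 after the correction for GC content and length). EPS8L2 rose from 6.08 ± 0.36 to 12.4 ± 0.9 FPKM (adjusted p = 0.000163) and ABLIM3 from 6.69 ± 0.51 to 10.7 ± 0.5 FPKM.

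**Figure D5:**
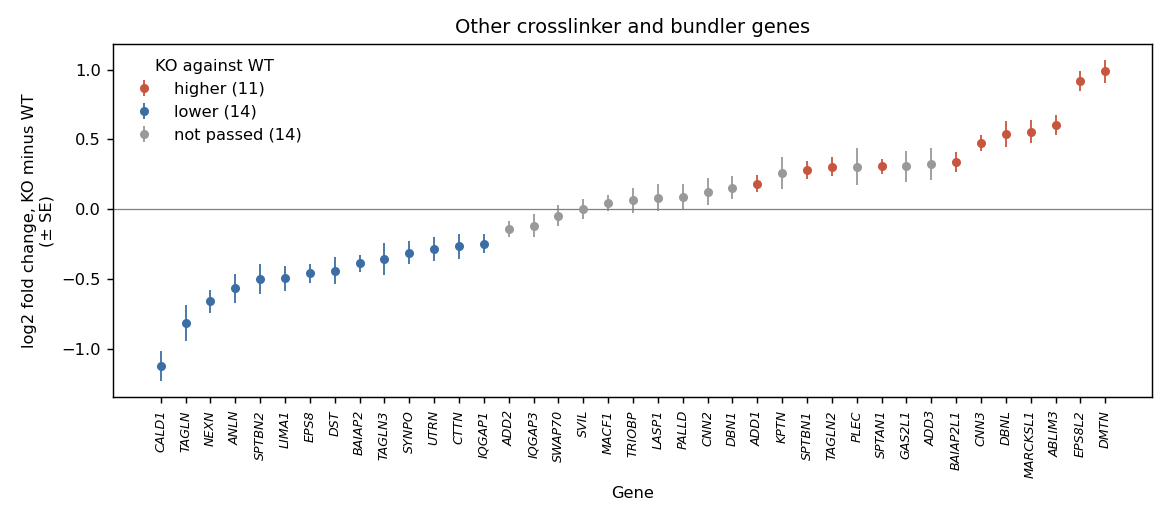
Log2 fold change, KO minus WT on the log2(FPKM + 1) scale, with its SE, of the 39 tested genes of the list of other crosslinkers and bundlers, ordered by size. The 14 lower, 14 not called and 11 higher genes form a continuous range from CALD1 to DMTN.

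Of 9 tested filamin partners and turnover genes 3 were higher and 1 lower, a called share of 44.4% and so near the 43.4% of all tested genes (3 and 3 under quantile normalization, 3 and 2 after the correction for GC content and length). HSPB8, a small heat shock protein that acts with BAG3 in the disposal of damaged filamin, rose from 2.77 ± 0.41 to 7.39 ± 0.62 FPKM. RFLNB, which encodes the filamin-binding refilin B, rose from 16.0 ± 0.9 to 23.1 ± 1.9 FPKM, and ITGB1, whose integrin tail binds filamin, fell from 183.0 ± 15.7 to 137.1 ± 5.8 FPKM (log2 fold change −0.41, and −0.18 after that correction).

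Of 25 tested partners of alpha-actinin and of focal adhesions 3 were higher, 6 lower and 16 did not pass, a called share of 36.0%, below that of all tested genes (4 higher and 10 lower after that correction). PDLIM1, which binds alpha-actinin, rose from 28.4 ± 1.6 to 64.3 ± 2.0 FPKM (limma adjusted p = 3.3e-05). PDLIM5, of the same list, fell from 6.43 ± 0.23 to 3.94 ± 0.38 FPKM (limma adjusted p = 0.000938). The adhesion scaffold BCAR1 fell from 20.7 ± 2.1 to 11.2 ± 0.3 FPKM. BCAR1 lies on chromosome 16, which also carries the targeted gene. BCAR1 starts at 75228187 and ADGRG1 ends at 57665580, and a link between them was not tested.

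Of 12 tested filopodia genes 1 was higher and 4 were lower, a called share of 41.7%, also near that of all tested genes (3 called, all lower, without WT 1 or without KO 2). The higher one, LIMK1, was also not called without WT 2 or KO 1. MYO10, the motor that travels to filopodial tips, fell from 22.2 ± 1.5 to 17.7 ± 1.5 FPKM (adjusted p = 0.0193, and 0.0524 to 0.0746 without WT 1, KO 2 or KO 3) and the formin gene FMNL2 from 20.7 ± 1.1 to 16.7 ± 0.1 FPKM (adjusted p = 0.00629). The other 7 did not pass. Of 36 tested genes of actin assembly, branching and severing 8 were higher and 8 lower (called share 44.4%), GSN, the severing protein gelsolin, rising from 3.07 ± 0.15 to 8.60 ± 0.20 FPKM. Of 10 actin-like and actin-related genes, besides ACTL8, 3 were higher and 1 lower, a called share of 40.0% (2 called, both higher, without WT 1; 3 called, all higher, after the correction for GC content and length; 3 higher and 2 lower under quantile normalization), and the testis genes ACTL7A and ACTL9 had 1 read and none.

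Markers of the tissues in which FLNC, LCP1 and PLS1 are best known were checked, because bulk libraries do not separate fewer cells of a type from less RNA per cell. Few markers of each list were tested, and over all tested genes 43.4% were called, 21.0% higher and 22.4% lower. Of 19 muscle markers 2 were tested, TNNT1, which did not pass, and MYH3, which was higher in KO. MYOD1, MYF5, TNNT2 and ACTA1 had no read, and the list's summed level was 17.4 to 23.4 FPKM in WT and 20.7 to 23.4 FPKM in KO. Of 12 leukocyte markers 3 were tested, of which 2 were higher in KO and 1 did not pass, and PTPRC had no read. Their summed level was 12.6 to 14.5 FPKM in WT and 23.9 to 26.2 FPKM in KO. Most of the difference came from LAPTM5, which rose from 0.92 ± 0.26 to 10.9 ± 0.8 FPKM. Of 10 intestinal epithelial markers 2 were tested, the keratins KRT8 and KRT18, both higher in KO (KRT18 was not called after the correction for GC content and length), while CDH1 had no read and EPCAM had 1 in each genotype. Of 11 fibroblast and mesenchymal markers 6 were tested, a called share of 66.7%. PDGFRB, SPARC, S100A4 and FN1 were higher, FN1 rising from 54.8 ± 3.5 to 80.8 ± 2.6 FPKM, CDH2 and VIM did not pass, VIM standing at 310.7 ± 25.8 and 286.9 ± 33.1 FPKM, and LUM and DCN had no read.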

How the data were processed

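RNA from 3 WT and 3 KO libraries of HT1080 cells went through a Qiagen column and into SMARTER mRNA-Seq libraries, per the labels' protocols. The authors deposited FPKM for 58735 genes, 1 column per library. Mouse builds, GRCm38 and mm10, are named in the submitters' processing notes, but starts and ends of 58735 genes equal those of human GENCODE release 29, so positions are on GRCh38. Aligner, counting tool and use of strand: not given in the sources used here. FPKM times gene length gave whole reads (100.0% of values of up to 500 reads within 0.02), from which read numbers were taken; counting error alone is covered by them.

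The test was limma 3.58.1 (R 4.3.3) on log2(FPKM + 1) with a mean-variance trend over the 12000 genes with a mean of at least 1 FPKM, all 6 libraries, genotype as the only term, two-sided, with Benjamini-Hochberg adjustment at 0.05. The test was tested on simulated data first. An exact permutation test of 3 against 3 libraries cannot go below 0.1. GC content is that of the longest GENCODE transcript; the correction removes lowess trends of each library's deviation on GC and length. Alternatives were the pseudocount, filters, quantile normalization, that correction, a replicate block and leaving out each library; limma-voom on recovered reads was added after seeing the data. Promoters come from RefSeq (GRCh38.p14); 8 of the 9 genes matched.

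The 9 genes, the lists, the tests and the naming rule were chosen with earlier results of these data known. Named besides the 9 genes were ADGRG1, further alpha-actinins and fascins, up to 4 called genes per list with the largest difference, at least 5 FPKM in the higher genotype and no overlap, nearest tested neighbours and the 3 most alike genes. PRAME, DMTN, ACTL7A, ACTL9 and marker genes outside that rule were named after their values were seen. 1 further gene that the naming rule covers was left out of the lists and is not reported here.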

Additional observations from a re-analysis of the deposited data

How the results depend on the processing

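Calls over all genes numbered 5207, 3203 with the filter at a mean of 5 FPKM (7053 genes tested) and 3792 to 5380 with a library left out. The correlations of same-numbered deviations from the genotype means were −0.07, −0.18 and −0.35, and no library correlated best with its own number. These deviations also carry the GC trends of the libraries. The correlations therefore cannot settle whether same-numbered libraries were prepared together. With the replicate block 3866 genes were called, 1 of the actins and 2 of the actin-like genes.

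The 9 genes kept the sign of their difference under each alternative run, except ACTN4 without WT 3. With a pseudocount of 0.1 FLNC was at −5.01 and ACTL8 at −4.47, and with limma-voom on recovered reads at −5.27 and −4.49. Under quantile normalization FLNA was at −0.52, ACTN1 at −0.22 and FSCN1 at 0.61. After the GC and length correction FLNA was at −0.51, FLNC at −3.85, ACTN4 at −0.20, PLS1 at 0.57, PLS3 at −0.39, FSCN1 at 0.54 and ACTL8 at −4.39, and 14 alpha-actinin and focal adhesion partners were called. The cause of these shifts was not tested. PLS1 was not tested with the filter at 5 FPKM. ACTR2 turned from −0.26 to 0.036 with that correction.

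Of the actins 1 was called with no filter and 0 of 2 with the filter at 5 FPKM by limma (1 at an unadjusted p under 0.05), where 3 filopodia genes were called. With a library left out, 1 to 2 actins, 2 to 6 actin-like genes, 3 to 5 filopodia genes, 18 to 26 other crosslinkers, 7 to 11 alpha-actinin partners, 4 to 5 filamin partners and 11 to 17 assembly genes were called.
The KO level of FLNC rests on 62 to 92 reads per library, which limits its precision.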

Other observations

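Some actin-bundling genes had almost no counted reads in both genotypes, and are named here after their values were seen. Overlap with other genes was checked only for the 9 genes, and the counting tool is not stated. Few counted reads therefore need not mean a silent gene. MARCKS, a membrane-bound actin crosslinker, had 0 reads in all WT libraries and 2 in all KO libraries, while its close relative MARCKSL1 rose from 66.9 ± 6.1 to 98.7 ± 4.6 FPKM (limma adjusted p = 0.0019). VIL1, the villin of brush borders, had 2 and 4 reads and ESPN, the espin of stereocilia, 7 and 5.

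Under the expression filter, and so without a test, some genes of these lists had unequal reads and are named here for that contrast. LSP1, a leukocyte actin-binding protein, had 3 reads in all of WT and 126 in all of KO. AIF1L had 28 and 211, VILL 66 and 3, and MYPN, a partner of alpha-actinin in muscle, 377 and 133. How many other genes under the filter differ as much was not counted. ACTA2, the smooth muscle actin, rose from 0.76 ± 0.10 to 3.26 ± 0.22 FPKM (limma adjusted p = 8.19e-05); reads of genes that overlap it on the other strand cannot be told apart without a stated strand setting.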
